A study of Mus musculus with 20 samples.

Results

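The Id genes are the 4 genes Id1, Id2, Id3 and Id4, taken by name from the 23260 genes of a single-cell expression table of mouse retina. All 4 were measured and are described here across cell types, ages and treatments. Id proteins are small helix-loop-helix proteins that lack the basic region through which related factors bind DNA. They pair with E proteins, the common partners of proneural factors, and so hold these factors off DNA, which is why they are best known for delaying differentiation of precursor cells. Bone morphogenetic protein (BMP) signalling through Smad proteins is a classic inducer of Id genes, and in the maturing retina Id expression is known from progenitors and Müller glia, the radial glia that arise from late progenitors.

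The tissue was retina of wildtype CD1 mice, explanted, cultured and electroporated. Control libraries received a construct that carries GFP alone, and the others received MEIS1, MEIS2, or both in equal parts, here called the combination. MEIS1 and MEIS2 are related homeodomain transcription factors, and the series title names late progenitors, temporal patterning and neurogenesis as its subject. Each of the stated ages, P2 and P5 (postnatal days 2 and 5), has 4 control libraries and 2 libraries for MEIS1, for MEIS2 and for the combination, which gives 20 libraries in 8 groups. Only GFP-positive cells were kept, in controls too, so all values come from electroporated cells, and the stated vectors carry a promoter that is not specific to a cell type. The factors in the design text of the series are NR2F1 and NR2F2, not MEIS1 and MEIS2, and its times are treatments of 2 or 5 days. Sample titles state MEIS constructs and ages and are followed here. The labels do not say that libraries came from separate animals or cultures, so p-values measure the spread between libraries, which may be technical.

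The libraries held between 1625 and 17739 cells and between 2376875 and 141540352 UMIs (unique molecular identifiers, each a counted RNA molecule), with medians of 992 to 14199 UMIs per cell. The library P2 MEIS2 replicate 2 stood apart: its median of 992 UMIs was the lowest, and Malat1, a nuclear RNA, took 10.0% of its UMIs against 2.53% to 4.41% elsewhere. Barcode starts name another group for P2 control 1 and P2 combination 2, and libraries shared at most 30 cell barcodes, 0.876% of the smaller library at most. The targeted genes followed the titles: in progenitors, Meis1 was at 2099 to 3750 CPM (UMIs per 1000000 UMIs) in MEIS1 libraries and 699.6 to 1001 CPM in combination libraries, against 164.3 to 353.6 CPM in controls. Meis2 was at 847.9 to 1830 CPM in MEIS2 libraries and 671.3 to 1588 CPM in combination libraries, against 34.6 to 197.1 CPM in controls. Cell types are those of the authors, named from the same cells' expression. Marker lists were highest in their own type for 7 of 7 rod genes, 6 of 6 cone genes, 5 of 5 starburst amacrine genes, 6 of 7 bipolar genes, 6 of 8 neurogenic genes, 4 of 6 Müller glia genes, 3 of 5 horizontal genes, 3 of 6 amacrine genes and 4 of 8 progenitor genes.

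The 4 genes share the helix-loop-helix segment, and the stretch of coding sequence that is most alike is shown because it is what makes them a family. Each line gives 120 bases of GENCODE vM21 coding sequence on mm10, in frame and without gaps, 5′ to 3′ on the gene's strand, and capitals mark the 69 positions with the same base in all 4 genes.
Id1: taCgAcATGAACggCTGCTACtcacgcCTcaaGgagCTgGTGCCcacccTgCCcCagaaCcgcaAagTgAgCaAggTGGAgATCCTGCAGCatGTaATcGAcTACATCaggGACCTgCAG
Id2: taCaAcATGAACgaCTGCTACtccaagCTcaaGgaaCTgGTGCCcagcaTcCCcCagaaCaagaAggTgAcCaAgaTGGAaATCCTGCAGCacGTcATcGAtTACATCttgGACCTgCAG
Id3: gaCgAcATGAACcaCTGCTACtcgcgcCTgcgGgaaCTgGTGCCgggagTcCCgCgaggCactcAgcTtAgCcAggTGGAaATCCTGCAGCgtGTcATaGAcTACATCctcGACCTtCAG
Id4: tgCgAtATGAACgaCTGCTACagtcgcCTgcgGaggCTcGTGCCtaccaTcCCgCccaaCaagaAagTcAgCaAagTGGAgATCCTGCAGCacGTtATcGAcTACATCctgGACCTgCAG
All 4 windows lie in exon 1 of their gene, within the coding sequence. The Id1 window (chr2:152736518-152736637, plus strand) lies in a gene of 2 exons, ENSMUSG00000042745, with 444 coding bases. The Id2 window (chr12:25095783-25095902, minus strand) lies in a gene of 3 exons, ENSMUSG00000020644, with 402 coding bases. The Id3 window (chr4:136144002-136144121, plus strand) lies in a gene of 3 exons, ENSMUSG00000007872, with 357 coding bases. The Id4 window (chr13:48261693-48261812, plus strand) lies in a gene of 3 exons, ENSMUSG00000021379, with 483 coding bases. Id1 and Id2 were the closest pair in this window, with 98 of 120 bases identical (81.7%), and Id3 was the farthest from the others, at 70.8% with Id1 and with Id4 and 71.7% with Id2.

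Levels are given as CPM, the UMIs of a gene per 1000000 UMIs of that cell type in that library. The libraries count 3′ ends, 1 per molecule, so no division by gene length was made. Fold changes come from a separate fit with TMM scaling. Progenitors are the authors' type for the cells from which later retinal neurons and Müller glia arise. In control progenitors Id3 was the most abundant Id gene, with 314.5 ± 119.6 CPM at P2 and 414.6 ± 124.0 CPM at P5 (SD, n = 4 libraries each). Id1 followed with 87.3 ± 43.9 and 74.1 ± 50.7 CPM, and Id2 with 67.2 ± 21.9 and 76.1 ± 32.5 CPM. The ranges of Id1 and Id2 overlapped at both ages, so their order cannot be given. Id4 had the lowest mean, with 24.1 ± 5.47 CPM at P2 and 28.6 ± 5.57 CPM at P5, and its range overlapped that of Id1 at P5, where 1 control library had 12.8 CPM of Id1. Cells of this type held far more Müller glia marker UMIs at P5 than at P2, with sums given below beside the partner genes. In most P5 libraries few of them had a UMI of a proliferation gene, as given below. The P5 levels are therefore not those of dividing cells alone, and the part of these markers in them was not tested.

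Müller glia and starburst amacrine cells had too few libraries for a ranking of types and are pooled below. The pooled levels lay above the progenitor means for all 4 genes in Müller glia and for Id4 in starburst amacrine cells. Single libraries moved some of the Müller glia pools. Progenitors held the highest mean of the types with at least 3 control libraries in 7 of 8 combinations of gene and age. The exception was Id4 at P5, where amacrine cells, the inhibitory interneurons of the inner retina, had 40.5 ± 37.2 CPM against 28.6 ± 5.57 CPM in progenitors, with overlapping ranges. The amacrine value was 57.0, 85.1, 12.9 and 6.83 CPM in controls 1 to 4, where the starburst amacrine markers summed to 23.6, 27.2, 5.66 and 1.95 CPM in the same cells. Their part in the value was not tested, and the share of cells with an Id4 UMI after thinning to 2000 UMIs was higher on average in progenitors (6.35% against 5.30%). Because the types were named from these cells' expression, differences between types are described without a test. In all 8 control libraries each of the 4 Id genes was higher in progenitors than in rods, and the ranges over libraries did not overlap. The same held for 11.2% of 7085 genes compared, and 25.0% were higher in every library. The mean log2 difference over the 8 libraries was 3.84 ± 0.82 (SD) for Id1, 3.30 ± 0.62 for Id2, 6.21 ± 1.00 for Id3 and 2.53 ± 0.66 for Id4.

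Neurogenic cells are the authors' type for progenitors that leave the cycle and express proneural factors. They lay below progenitors for all 4 Id genes in 8 of 8 control libraries, as did 1358 of 6786 genes. The mean log2 difference was 1.40 ± 0.51 for Id1, 1.45 ± 0.35 for Id2, 3.11 ± 1.59 for Id3 and 1.47 ± 0.55 for Id4. For Id3 this mean covers unlike ages, with 314.5 CPM in progenitors against 13.8 CPM in neurogenic cells at P2 and 414.6 against 134.9 CPM at P5. At P5 the neurogenic cells also held more UMIs of progenitor and Müller glia markers than at P2, as given below. The ranges of the types were apart for Id4 alone, as for 2.15% of genes. Against amacrine cells, progenitors were higher in 8 of 8 libraries for Id2 and Id3, in 7 of 8 for Id1 and in 5 of 8 for Id4, and against bipolar cells all 4 genes were higher in 5 of 5 libraries. The ranges were apart for Id2 and Id3 against amacrine cells, as for 7.83% of genes, and for all 4 against bipolar cells, as for 14.4%. Being higher in every library held for 19.2% of genes against amacrine cells and for 24.1% against bipolar cells.

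Rods, the most numerous photoreceptors, had low levels of every member: 5.49 ± 2.07 CPM of Id1, 8.60 ± 4.92 of Id2, 5.50 ± 2.81 of Id3 and 4.03 ± 1.99 of Id4 at P2. Bipolar cells at P5 ranged from 0.862 ± 0.737 CPM of Id1 to 2.88 ± 1.93 CPM of Id2. Cones had means of 1.84 to 6.91 CPM at P2, with libraries at 0 UMIs for Id2, Id3 and Id4. Free RNA from other cells also gives UMIs in types that do not express a gene, and rods were taken as the background type. With cells thinned to 2000 UMIs each, 35.1% ± 8.95 of P2 control progenitors and 43.4% ± 10.0 of P5 control progenitors had an Id3 UMI (SD, n = 4), against 0.874% ± 0.392 and 0.539% ± 0.122 of rods. Without thinning these shares were 61.7% and 86.0% in progenitors and 1.69% and 1.20% in rods. The thinned shares for Id1 were 14.9% and 12% in progenitors and 0.961% and 0.648% in rods, and for Id2 11.6% and 14.3% against 1.58% and 1.06%. For Id4, 4.37% and 6.35% of progenitors had a UMI, against 0.785% and 0.904% of rods.

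Müller glia and starburst amacrine cells were too few for a mean over libraries and were pooled over the control libraries of an age, with exact Poisson intervals that cover counting error only. Müller glia, 59 cells at P2 and 74 at P5, had a pooled Id3 level of 590 CPM at P2 (95% interval 538 to 646) and 1051 CPM at P5 (interval 999.7 to 1105). Their Id1 level was 143 CPM (118 to 172) at P2 and 336 CPM (307 to 367) at P5, and their Id2 level 87.4 CPM (68.0 to 111) and 282 CPM (256 to 311). Id4 was at 103 CPM (81.4 to 127) and 130 CPM (112 to 149). Astrocyte markers (Gfap, Pax2 and Aldh1l1) summed to 288.5 CPM in Müller glia of P2 control 1 and to 534.3 CPM in those of P5 control 3, against at most 33.2 CPM in a library of any other type, and their part in these levels was not tested. Single libraries moved the P2 pools of Id1, Id2 and Id3 outside these intervals, while Id4 stayed at 84.1 to 108.5 CPM with each library left out in turn. Without control 1, which gave 40 of the 59 cells, pooled Id3 was 1688 CPM, Id1 468 CPM and Id2 142 CPM. Without control 2, whose 3 cells had 170 Id3 and 75 Id1 UMIs, Id3 was 390 CPM and Id1 50.0 CPM. At P5, Id1 was 213 CPM without control 3, and Id3 ranged from 841 to 1125 CPM with each library left out in turn. Starburst amacrine cells, the cholinergic amacrine type, had Id4 as their main Id gene, with 154 CPM at P2 in 50 cells and 144 CPM at P5 in 27 cells, of which 26 came from control 1. Id1 had no UMI in either pool, which allows up to 7.01 CPM at P2 and 10.1 CPM at P5 by 3 UMIs of the total, and Id3 had 2 UMIs at P2 and none at P5.

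**Figure D1:**
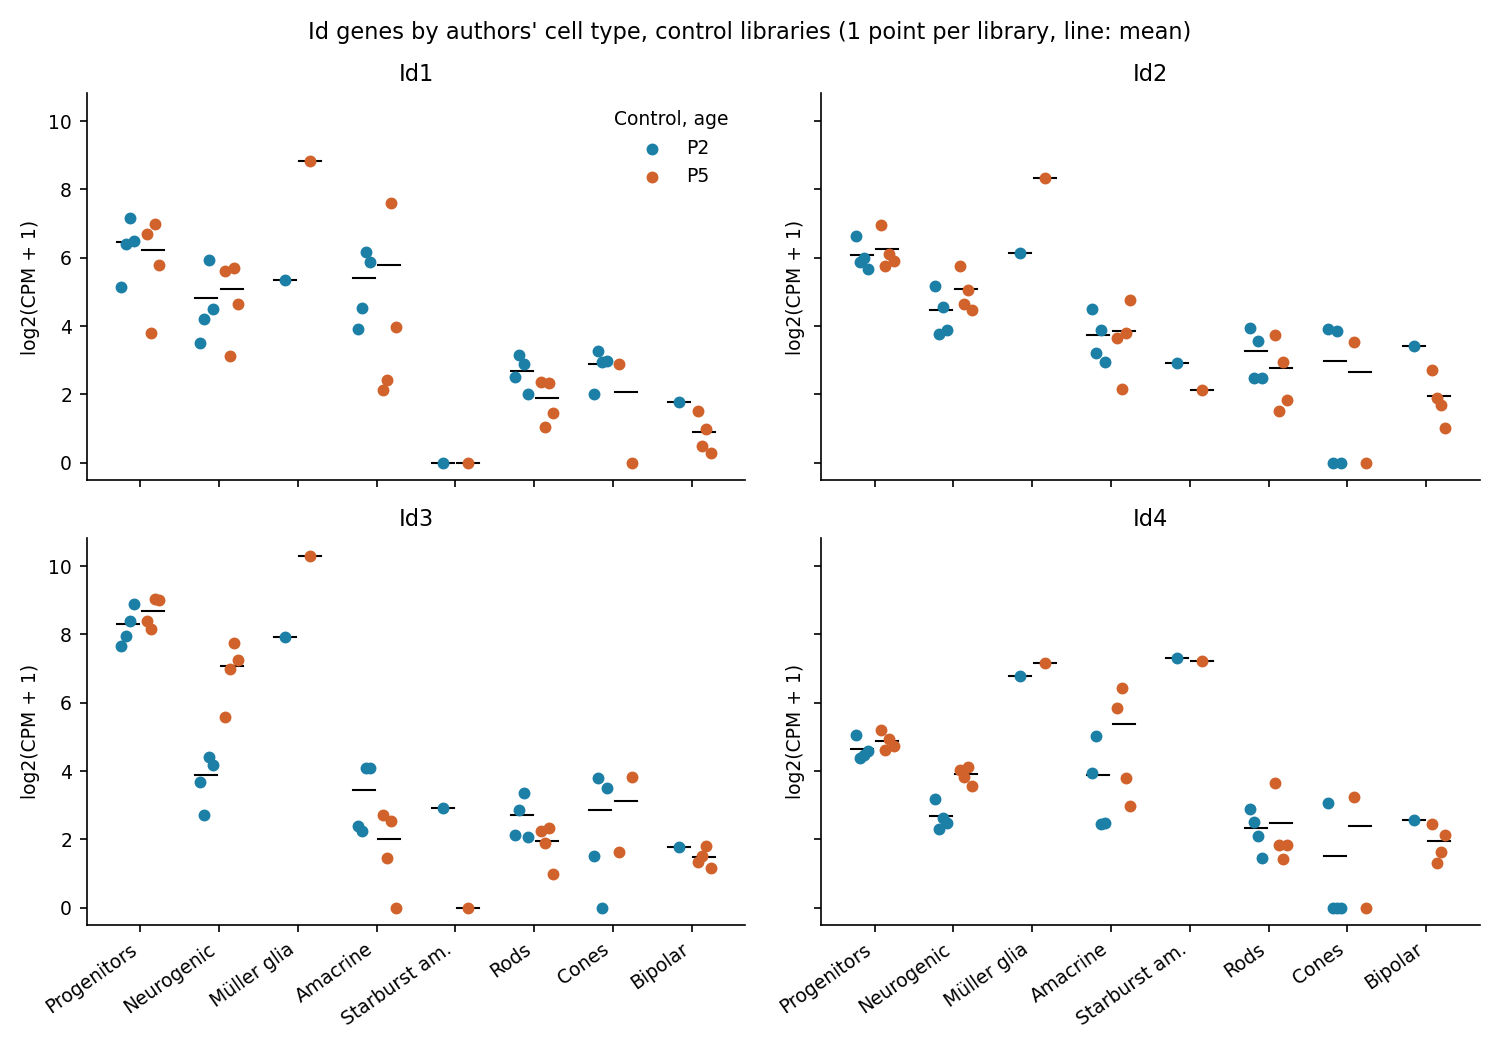
Levels of the 4 Id genes in control libraries, as log2(CPM + 1), by the authors' cell type, with 1 point per library of at least 20 cells of the type. Blue is P2, orange is P5, and bars are the log2 of the mean CPM plus 1. Progenitors sit above rods in every panel, and Id3 in neurogenic cells lies higher at P5 than at P2. Müller glia and starburst amacrine cells show 1 library per age, so that their points differ from the pooled values of the text.

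Over the 47 control sums of a library and type, the genes most like each member were found by Pearson r of log2(CPM + 1) among 7318 genes with a mean of at least 20 CPM. The sums share libraries and types, so r is a description. For Id1 they were Fstl1, Dkk3, Prdx6, Ppic and Dapl1 (r from 0.874 down to 0.813). For Id2 they were Gpx8, Glul, Grb10, Klf6 and Itgb1 (0.870 to 0.846), of which Glul, glutamine synthetase, is a Müller glia marker. For Id3 they were Ass1, Dbi, Pdpn, Pmp22 and Prss23 (0.935 to 0.927), and for Id4 Cdh6, Hmga2, Lama1, Adam23 and Crim1 (0.901 to 0.828). Among the members, Id1, Id2 and Id3 tracked each other with r of 0.718 to 0.755, while Id4 had r of 0.340 with Id1, 0.434 with Id3 and 0.612 with Id2.

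Within control progenitors, the share of cells with UMIs of 2 Id genes was above the product of the single shares for 5 of 6 pairs at P2 and for 2 of 6 at P5. At P2, 2.26% of 5450 thinned cells had both Id1 and Id2 against a product of 1.75%, and 4.79% had both Id1 and Id3 against 4.51%. At P5, 2.37% of 1687 cells had both Id1 and Id2 against 1.84%, and 4.86% had both Id2 and Id3 against 5.78%. The share with both, divided by the product, was 1.29 for Id1 with Id2 at both ages and ran from 0.943 (Id2 with Id3) upward at P2 and from 0.552 (Id2 with Id4) at P5. Cells of 4 libraries are pooled here, so differences between libraries enter these shares.

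Id1, Id2 and Id3 differed between progenitors with and without UMIs of proliferation genes, mainly in P2 libraries. The split was chosen after the data were seen, and 25.7% of 6949 genes were higher and 19.3% lower in every library tested. The p-values below therefore do not set the Id genes apart from other genes. Progenitors were split by whether the cell had a UMI of Mki67 or Top2a, which mark dividing cells, after thinning to 2000 UMIs, in the 11 libraries with at least 20 cells on both sides (9 at P2, 2 at P5, with 2510 and 6864 cells). Id1 was higher in cells with such a UMI in 11 of 11 libraries: the lowest, median and highest library were 59.9, 192.5 and 291.7 CPM with, and 27.1, 85.2 and 162.9 CPM without. The mean was 170.2 ± 79.0 CPM with and 79.1 ± 40.4 CPM without (two-sided exact sign-flip permutation p = 0.000977, the smallest that 11 libraries allow, adjusted over the 4 genes 0.00195). Although the pooled ranges overlap, every library moved the same way.

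Id3 went the other way in all 11 libraries, with 111.0, 145.0 and 289.7 CPM in cells with such a UMI and 214.7, 278.8 and 631.5 CPM in cells without. Its mean was 162.6 ± 54.0 CPM with and 354.7 ± 142.3 CPM without (exact permutation p = 0.000977, adjusted 0.00195). Id2 was higher in 10 of 11 libraries, 100.8 ± 29.3 CPM against 80.9 ± 24.5 CPM (exact permutation p = 0.00293, adjusted 0.00391). Id4 was 34.7 ± 14.2 CPM with and 35.1 ± 13.3 CPM without, higher in 6 of 11 (exact permutation p = 0.948), and the difference of -0.336 ± 18.1 CPM (SD over libraries) leaves room for a difference in either direction. Among the 4 P2 control libraries alone, Id1 was 166.8 against 71.6 CPM and Id3 158.0 against 398.7 CPM, each in the same direction in 4 of 4, where an exact p cannot go below 0.125.

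The 9 libraries left out, 8 of them of P5, held 1 to 15 cells with such a UMI and 67 in all. In these cells there were 10 UMIs of Id1 and 37 of Id3, and the directions were mixed. Id1 was higher in cells with such a UMI in 2 libraries and lower in 6, and Id3 was higher in 5 and lower in 4. The relation at P5 therefore rests on the 2 libraries tested. This split was chosen after the data were seen, and it moved many genes: 25.7% of 6949 genes were higher in all 11 libraries and 19.3% lower in all 11. These shares come from all UMIs of the cells, not from thinned ones. On that measure Id2 was higher in 11 of 11 libraries. The Müller glia marker list was lower in cells with such a UMI in 11 of 11 libraries, 1519 against 3996 CPM summed over 6 genes. The neurogenic list was higher in 11 of 11, 1805 against 876 CPM. Their part in the Id values was not tested. Cells with such a UMI held 14600 UMIs on average and those without 12980, and with all UMIs kept the levels were 166.5 against 73.2 CPM for Id1 and 150.5 against 351.6 CPM for Id3.

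**Figure D2:**
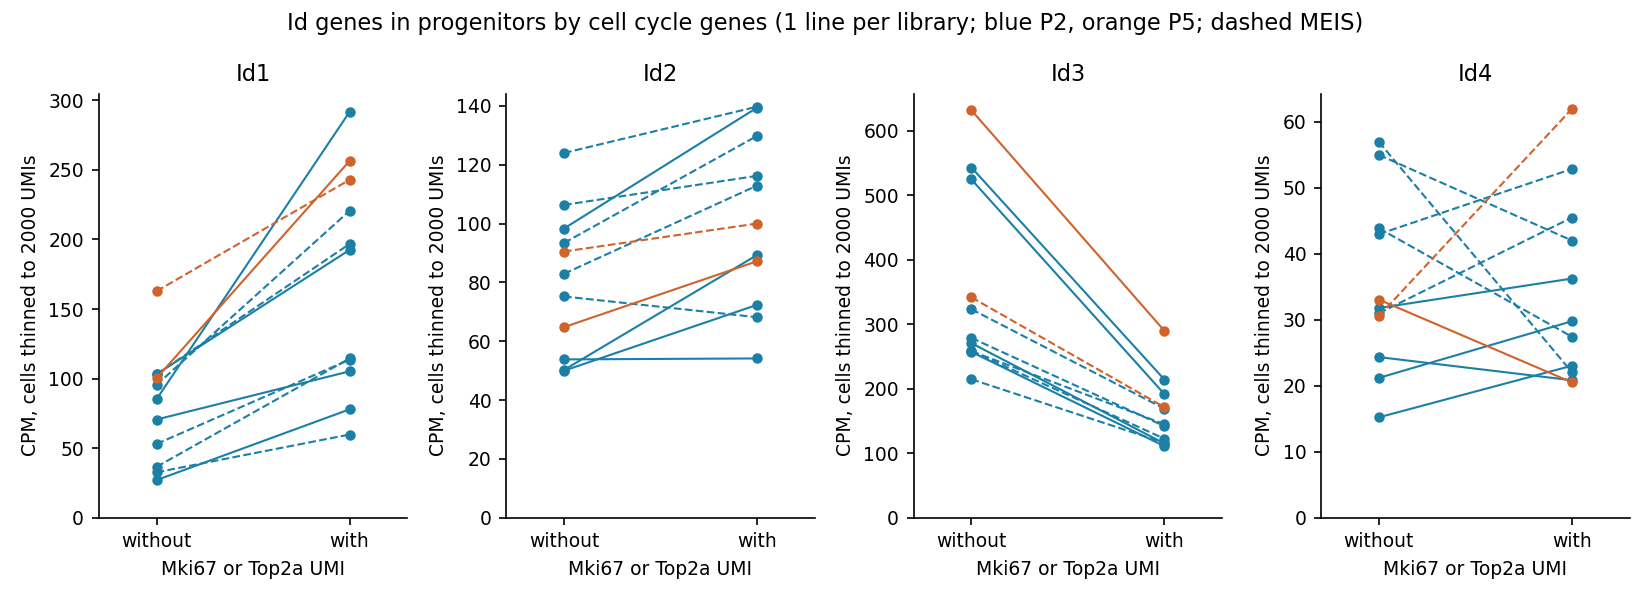
Id levels in progenitors without and with an Mki67 or Top2a UMI, in CPM after thinning each cell to 2000 UMIs. Each line joins the values of 1 library, blue for P2, orange for P5, solid for control and dashed for MEIS constructs. Id1 rises and Id3 falls from left to right in all 11 libraries, Id2 rises in 10, and Id4 has no common direction.

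Between P2 and P5, control libraries were compared by edgeR's quasi-likelihood test with Benjamini-Hochberg adjustment over all genes of the type, and a gene was called at an adjusted p under 0.05. Of 16 tests of an Id gene in progenitors, neurogenic cells, rods and amacrine cells, 2 were called, both in neurogenic cells; cones gave no test, since no Id gene passed the filter there (0.0605% of genes called). In neurogenic cells 9.27% of 13745 genes were called and 6.67% were called higher at P5. In neurogenic cells of controls, Id3 was at 11.9, 5.56, 20.4 and 17.1 CPM at P2 and at 46.9, 126.5, 215.3 and 150.7 CPM at P5. The 4 P5 libraries all lay above the 4 P2 libraries, as for 9.09% of genes. The log2 fold change was 3.19 ± 0.53 (SE) with an edgeR adjusted p of 0.000624.

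Id4 in the same cells was at 8.14, 3.97, 5.19 and 4.61 CPM at P2 and at 15.4, 13.1, 16.4 and 10.9 CPM at P5. The ages again did not overlap. Its log2 fold change was 1.22 ± 0.35 with an edgeR adjusted p of 0.0336. This call was lost when any of P2 controls 2, 3 and 4 or P5 controls 1, 2 and 3 was left out, with log2 fold changes of 1.12 to 1.24 and edgeR adjusted p of 0.0655 to 0.0968. Id1 went from 27.4 ± 22.4 to 32.7 ± 20.5 CPM and Id2 from 21.0 ± 10.2 to 32.8 ± 14.6 CPM, with log2 differences of 0.15 ± 0.66 and 0.54 ± 0.35 that were not called (edgeR adjusted p = 0.944 and 0.398).

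The libraries with MEIS constructs are other libraries than the controls and gave the same order for Id3 in neurogenic cells. Whether libraries of both arms were prepared together is not stated. At P5, Id3 in these cells was lower in replicate 1 than in replicate 2 in 4 of 4 groups, control and construct alike. The share of all genes that did the same was not computed. The arms are therefore not taken as independent. At P2, Id3 was at 11.8 and 15.5 CPM with MEIS1, 16.1 and 3.13 with MEIS2 and 5.30 and 3.73 with the combination. At P5 it was at 63.0 and 169.5 CPM with MEIS1, 92.7 and 125.3 with MEIS2 and 45.6 and 218.0 with the combination. Every P5 library lay above every P2 library, as for 4.34% of genes. The log2 fold change was 3.73 ± 0.46 with an edgeR adjusted p of 2.59e-05, in a comparison in which 13.8% of genes were called and 9.14% were called higher. Id4 rose from a median of 8.61 to 14.3 CPM over 6 libraries each, with overlapping ranges, and missed the threshold (log2 0.77 ± 0.29, edgeR adjusted p = 0.0879).

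The Id3 UMIs of P5 neurogenic cells were held by few cells. In the 4 P5 control libraries, cells with at least 5 Id3 UMIs were 4.18% to 16.2% of neurogenic cells and held 74.1% to 90.7% of the Id3 UMIs. The thinned share of neurogenic cells with an Id3 UMI was 2.15% ± 0.65 at P2 and 12.4% ± 5.46 at P5 (SD, n = 4), against 4.91% and 27.4% without thinning.

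Markers of progenitors and Müller glia moved with these values in the same cells. The 6 Müller glia markers summed to 403.6 to 614 CPM in neurogenic cells of the P2 controls and to 2612 to 4419 CPM at P5, and at most 1 of the 6 was at 0 in a library. The 8 progenitor markers summed to 162.5 to 239.3 CPM at P2 and to 746.5 to 1468 CPM at P5, with none at 0. In progenitors of the same controls they summed to 1254 to 2410 CPM at P2 and to 1114 to 1934 CPM at P5. At P5 the 2 types therefore overlapped in these markers, and the age values of neurogenic cells may not compare 1 cell state. In MEIS libraries both lists were apart too. Müller glia markers summed to 422.3 to 472.8 CPM at P2 and 1462 to 5161 CPM at P5, and progenitor markers to 177.4 to 309.7 and 419.2 to 1526 CPM. Other lists were also apart between the ages in controls. Starburst amacrine markers summed to 32.4 to 49.4 CPM at P2 and 183 to 301 CPM at P5. In MEIS libraries their sums were 22.9 to 62.6 CPM at P2 and 40.6 to 306.5 CPM at P5. Over all neurogenic cells this sum lay in Isl1 (77.3 CPM) and Megf10 (42.1 CPM), with the cholinergic genes Chat, Slc18a3 and Slc5a7 at 0.0833, 0.0208 and 0.333 CPM. Endothelial markers, mostly Kdr, summed to 84.7 to 128.9 CPM at P2 and 175.2 to 360.5 CPM at P5 in controls. Horizontal markers summed to 137.8 to 295.1 CPM at P2 and 313.5 to 370.3 CPM at P5. Pericyte markers, at very low levels, summed to 0.795 to 1.20 CPM at P2 and 1.74 to 3.04 CPM at P5. The part of these lists in the called Id3 and Id4 values was not tested. Neurogenic cells of at least 2000 UMIs were binned by their summed UMIs of both lists after thinning to 2000 UMIs, a split chosen after the data were seen. At 1 or 2 marker UMIs, pooled Id3 was 8.24 CPM at P2 (1577 control cells) and 7.99 CPM at P5 (313 cells). At 3 to 5 it was 18.3 CPM in 520 cells and 12 CPM in 417 cells, and at 6 to 10 it was 120.4 CPM in 108 cells and 71.2 CPM in 365 cells.

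The libraries with at least 20 cells in a bin ranged from 0 to 15.1 CPM at P2 and 0 to 12.5 CPM at P5 with 1 or 2 marker UMIs, and from 0 to 27.6 and 0 to 24.2 CPM with 3 to 5. With 6 to 10 they ranged from 127.5 to 166.7 CPM in 2 libraries at P2 and from 30.3 to 100.5 CPM in 4 at P5. These markers moved with age themselves, so the bins are a description without a test. Cells with at least 11 marker UMIs were 0.204% of P2 control neurogenic cells (7 cells) and 29.6% of those at P5 (500 cells), where they had 453 CPM and held 453 of the 520 Id3 UMIs. Cells with no marker UMI were 35.4% at P2, with 4.54 CPM of Id3, and 5.51% at P5, where 93 cells had no Id3 UMI, which allows up to 16.1 CPM. In MEIS libraries pooled Id3 was 8.88 CPM at P2 and 3.30 CPM at P5 with 1 or 2 marker UMIs, 10.8 and 21.0 CPM with 3 to 5, and 67.3 CPM in 52 cells and 98.7 CPM with 6 to 10. Cells with at least 11 were 24.6% at P5, with 349 CPM.

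**Figure D3:**
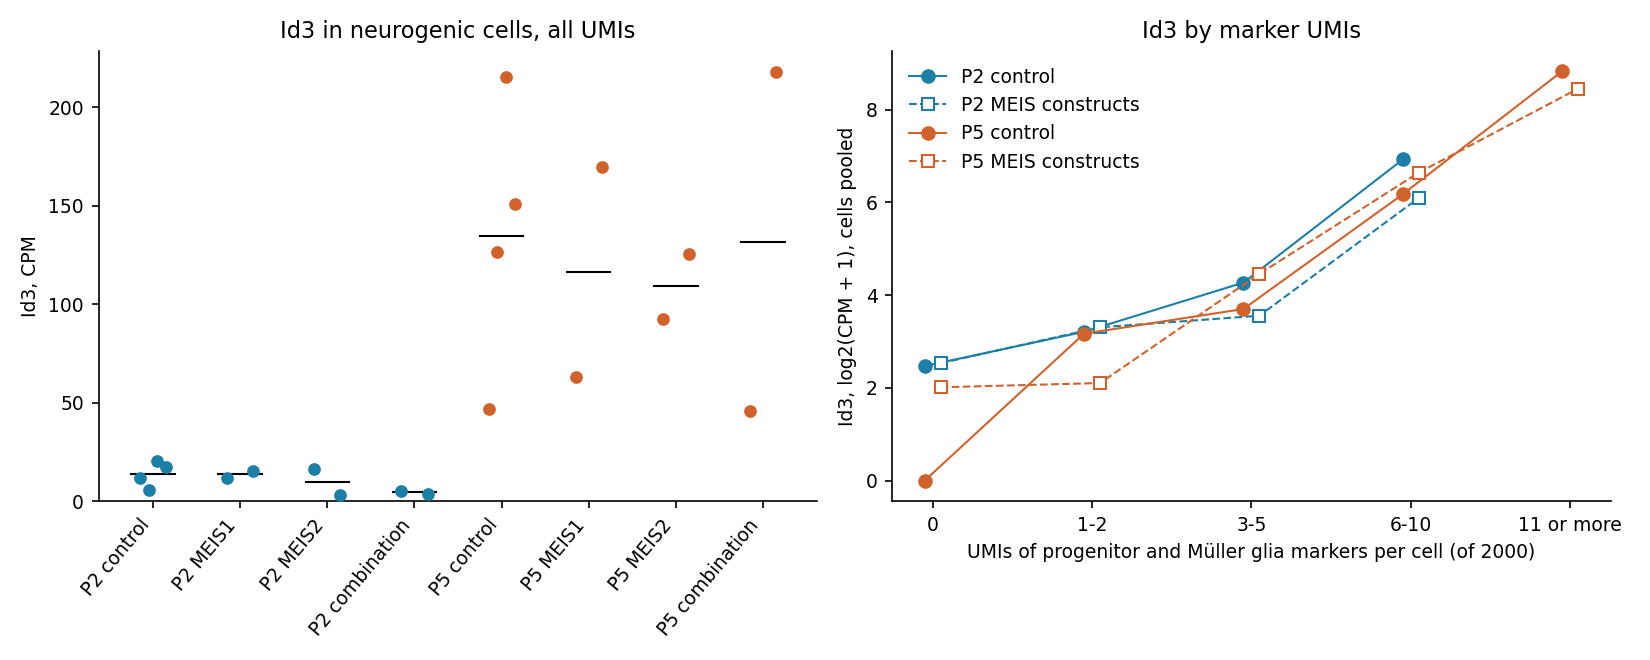
Left, Id3 in neurogenic cells in CPM, with 1 point per library and a bar at the group mean; all 10 P5 libraries lie above all 10 P2 libraries. Right, Id3 as log2(CPM + 1) in neurogenic cells pooled by age and arm and binned by progenitor and Müller glia marker UMIs among 2000 UMIs per cell; bins of fewer than 20 cells are not drawn. Id3 climbs with the marker UMIs in each of the 4 lines, up to 453 CPM in P5 controls.

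In progenitors none of the 4 genes was called between the ages in controls, where 17.5% of 14849 genes were. Id3 was at 202.4, 248.5, 332.3 and 474.7 CPM in the P2 controls and at 332.9, 284.3, 525.3 and 516.0 CPM in the P5 controls, with overlapping ranges and a log2 difference of 0.35 ± 0.41 (edgeR adjusted p = 0.598). The other log2 differences were -0.31 ± 0.73 for Id1, 0.21 ± 0.40 for Id2 and 0.26 ± 0.27 for Id4. In the MEIS libraries, where 29.9% of genes were called, Id3 in progenitors had a log2 difference of 0.85 ± 0.34 (edgeR adjusted p = 0.0685). Without P2 MEIS2 replicate 1 it was 1.53 with an adjusted p of 0.000927, since P2 MEIS2 replicate 2, at 43.1 CPM, then stands alone for its group. Without replicate 2 it was 0.59 (adjusted p = 0.0959).

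In rods, Id1 was at 4.66, 7.83, 6.41 and 3.08 CPM in the P2 controls and 4.16, 1.08, 4.06 and 1.72 CPM in the P5 controls (log2 -1.03 ± 0.47, edgeR adjusted p = 0.163), in a comparison with 13.2% of genes called. In MEIS libraries the lowest, median and highest were 3.47, 8.27 and 10.2 CPM at P2 and 1.23, 1.64 and 6.45 CPM at P5, with the combination replicate 1 as the high P5 library. There the log2 difference of Id1 was -1.81 ± 0.41 (edgeR adjusted p = 0.00448, 22.1% of genes called, 10.5% lower), and the call was lost without P2 MEIS2 replicate 1 (log2 -1.48, adjusted p = 0.110). Rods are the type taken here as the background for free RNA, so a difference at these levels is not read as a change of expression in rods. In the rods of MEIS libraries the neurogenic markers summed to 918.7 to 1051 CPM at P2 and to 357 to 653.3 CPM at P5, except for 1151 CPM in the combination replicate 1. Rod markers summed to 1840 to 2914 CPM at P2 and 3416 to 8892 CPM at P5. Horizontal markers summed to 139.5 to 214.8 CPM at P2 and 40.3 to 78.8 CPM at P5, with no overlap. Progenitor markers (33.3 to 69.5 against 22.5 to 33.2 CPM) and endothelial markers (9.59 to 15.6 against 4.66 to 9.35 CPM) were also apart. The part of these lists in the Id1 values was not tested. Amacrine Id4 differed by 1.56 ± 0.66 in controls and 2.01 ± 0.57 in MEIS libraries (edgeR adjusted p = 0.504 and 0.0690), with 0.397% and 2.98% of genes called. With the replicate number as a block, an alternative fit, the MEIS difference was called (edgeR adjusted p = 0.00335).

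**Figure D4:**
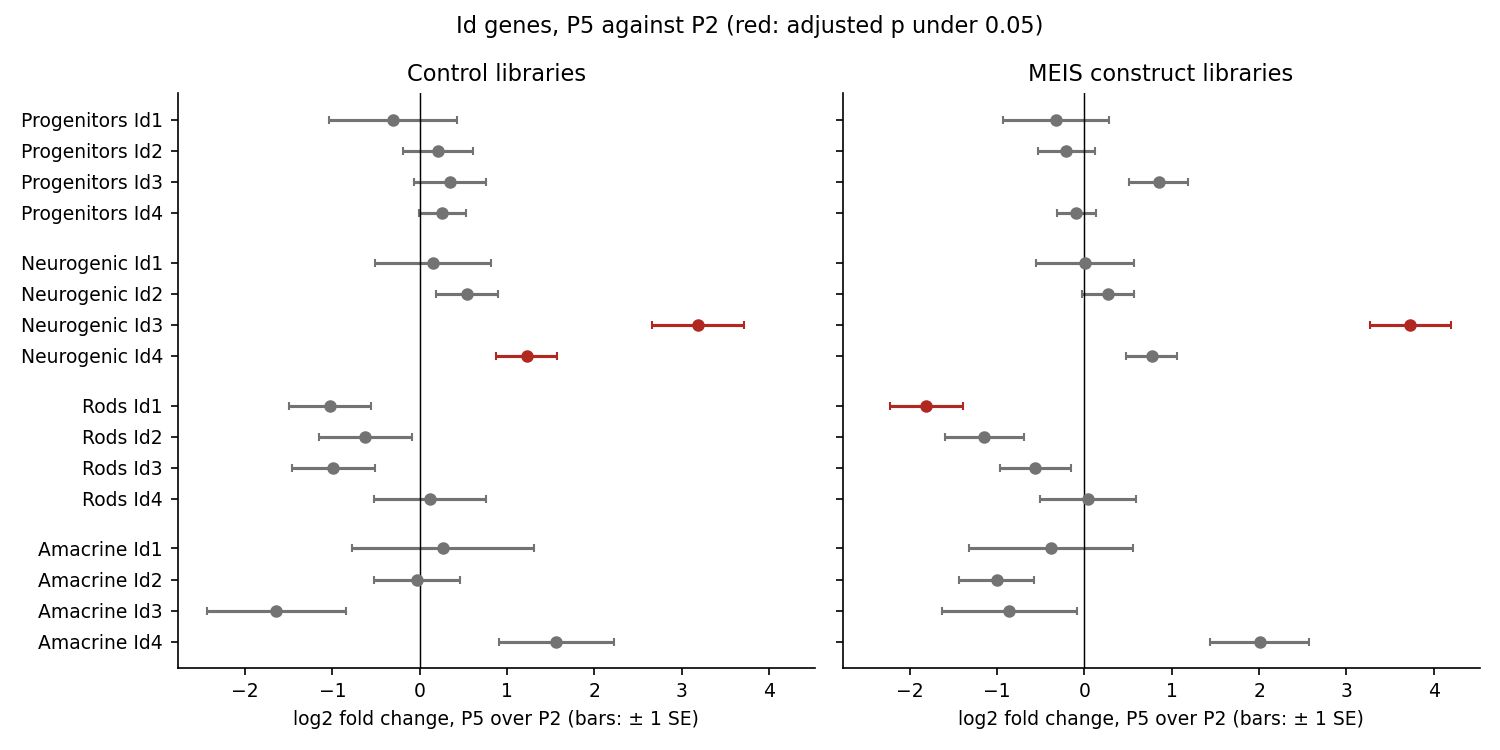
Log2 fold changes of the Id genes from P2 to P5 in 4 cell types, from the edgeR fit, with bars of 1 SE. Red points have an adjusted p under 0.05: Id3 and Id4 in neurogenic cells of controls, and Id3 in neurogenic cells and Id1 in rods of MEIS libraries.

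MEIS constructs were compared with controls of the same age. No Id gene was called in any cell type tested, at P2 (16 tests) or P5 (20 tests), nor for a single construct in progenitors (24 tests), nor in the difference of the P5 and P2 effects (16 tests). DESeq2 also called none. At an unadjusted edgeR p under 0.05 there were 1, 0, 2 and 0 of these tests, all in progenitors at P2. They were Id3 for any construct, where 1357 of 14849 genes had such a p, and Id3 for MEIS2, where 2366 did. The last was Id4 for MEIS1, where 153 genes did. In progenitors the background was small too: 0.0135% of genes (2 of 14849) were called at P2 and 0.0202% (3 genes) at P5. Single constructs gave 0.00673% to 0.0404% of genes in progenitors. In neurogenic cells 0.00728% and in bipolar cells 0.00678% of genes were called at P5.

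Progenitor Id3 at P2 was lower on average with the constructs: 245.1 and 208.1 CPM with MEIS1, 269.1 and 43.1 with MEIS2 and 184.8 and 238.6 with the combination, against 202.4 to 474.7 CPM in controls. The ranges overlapped, and the log2 difference was -0.87 ± 0.37 (edgeR adjusted p = 0.495). Without P2 MEIS2 replicate 1 the difference was -1.56 (adjusted p = 0.00984), with the 43.1 CPM of the shallow replicate 2 as the only MEIS2 value and 4.76% of genes called. Over all libraries left out in turn it ranged from -1.56 to -0.59. Progenitors of replicate 2 held 1063 CPM of rod markers, against 55.9 to 231.7 CPM in the other P2 libraries, and 275.2 CPM of amacrine markers, against 35.6 to 102.7 CPM. Their progenitor markers had the lowest sum at P2, 1179 CPM against 1254 to 2720 CPM. The part of these markers in the Id values of replicate 2 was not tested. At P5 the values were 303.1 and 305.0 CPM with MEIS1, 222.7 and 304.4 with MEIS2 and 288.9 and 530.3 with the combination, against 284.3 to 525.3 CPM in controls (log2 -0.37 ± 0.37, edgeR adjusted p = 1.00). The difference between the effects at the 2 ages was 0.50 ± 0.53 (edgeR adjusted p = 1.00).

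Progenitor Id4 at P2 was at 32.0, 19.9, 21.2 and 23.2 CPM in controls. With MEIS1 it was at 45.4 and 40.8 CPM and with the combination at 40.6 and 34.8 CPM, all above the controls, as for 4.4% and 5.04% of genes. With MEIS2 it was at 46.3 and 10.8 CPM. The log2 differences were 0.72 ± 0.32 for MEIS1 (edgeR adjusted p = 1.00), 0.48 ± 0.32 for the combination and 0.18 ± 0.34 for MEIS2, none called. At P5 the 6 construct libraries, from 25.8 to 42.9 CPM, overlapped the controls at 23.3 to 36.0 CPM.

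Id1 and Id2 in progenitors of each construct group overlapped the controls of its age. Id1 ranged from 34.1 to 141.6 CPM among P2 controls and from 12.8 to 126.6 CPM among P5 controls. With constructs it ranged from 3.08 to 146.2 CPM at P2 and from 14.9 to 169.2 CPM at P5, with log2 differences of -0.46 ± 0.66 and -0.47 ± 0.67. Id2 differed by 0.16 ± 0.36 at P2 and -0.26 ± 0.36 at P5. At P5 the replicate number moved with these values: in 4 of 4 groups replicate 1 was above replicate 2 for progenitor Id1 (48.4 to 169.2 against 12.8 to 55.4 CPM) and Id2 (82.2 to 123.9 against 40.6 to 52.9 CPM). In neurogenic cells Id3 was lower in replicate 1 in 4 of 4 groups (45.6 to 92.7 against 125.3 to 218 CPM). The median mitochondrial percent was higher in replicate 1 in all 4 (6.93 to 10.6 against 3.66 to 5.11). Markers followed the number in all 4 groups too. In progenitors the neurogenic markers summed to 888 to 1243 CPM in replicate 1 and 310.5 to 675.4 CPM in replicate 2. In neurogenic cells the progenitor markers summed to 419.2 to 1193 CPM in replicate 1 and 1360 to 1526 CPM in replicate 2. The share of all genes that followed the number in this way was not computed, so these values do not set the Id genes apart from other genes. The labels do not say what a number marks, and neither its part nor that of the markers in the Id values was tested.

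**Figure D5:**
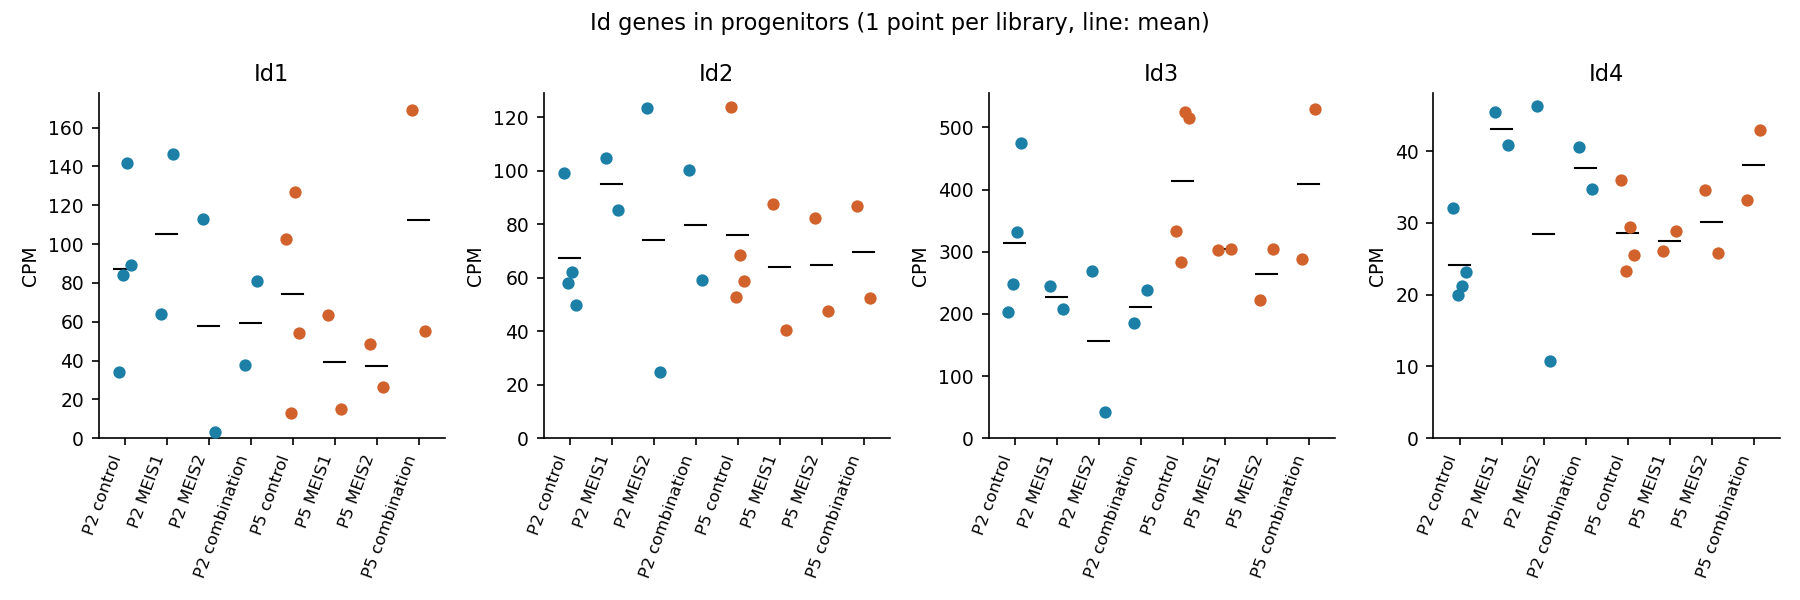
Id genes in progenitors, in CPM, in each of the 20 libraries by group, with a bar at the group mean. Each construct group overlaps the controls of its age for Id1, Id2 and Id3, the lowest P2 MEIS2 point in each panel is replicate 2, and Id4 in the P2 MEIS1 and combination libraries lies above the 4 P2 controls.

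Across the 10 libraries of an age, progenitor levels of the Id genes were related pair by pair as log2(CPM + 1) after TMM scaling, with 12 relations and permutation p-values. The permutations ran over all 10 libraries and not within the control and construct groups. Their p-values therefore mix differences between groups with the spread within them. At P2, Id1 and Id3 had r = 0.91 (permutation p = 0.00574, adjusted 0.0344) and rho = 0.733 (adjusted 0.117), and Id2 and Id4 had r = 0.925 (permutation p = 0.00388, adjusted 0.0344) and rho = 0.818 (adjusted 0.0679). Without the 2 libraries farthest from the median of the first gene, r was 0.55 and 0.67. P2 MEIS2 replicate 2 was the lowest library for each gene, so these relations rest in part on it, and no rank correlation passed the threshold after adjustment. Without TMM scaling, that of Id2 and Id4 did (rho = 0.867, permutation p adjusted 0.025). At P5 the strongest relation was Id1 with Id2, at r = 0.704 (permutation p = 0.0201, adjusted 0.0802) and rho = 0.697 (adjusted 0.123), with r = 0.64 without 2 libraries. Both genes followed the replicate number at P5, and the 4 libraries of each number are too few for a correlation within it. For deviations from the group means, without a test, r was 0.915 for Id1 with Id3 and 0.954 for Id2 with Id4 at P2. At P5 it was 0.747 for Id1 with Id2. The P2 values still include MEIS2 replicate 2.

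The partners and regulators of Id proteins were taken from lists of 3 E proteins, 8 proneural and other class II bHLH factors, 6 Hes and Hey factors and 4 groups of BMP genes with a list of other BMP targets. Between P2 and P5 in control progenitors (10.6% of genes called higher and 6.96% lower), the E proteins were not called, and Tcf4, the most abundant, was at 1124 CPM at P2 and 1179 CPM at P5. The Müller glia markers summed to 1100 to 3208 CPM in these progenitors at P2 and to 8940 to 16530 CPM at P5, against 10480 CPM in Müller glia of P5 control 3. In the same cells the sums of 6 other lists were apart between the ages. Starburst amacrine (28.1 to 88.5 against 164.8 to 218.2 CPM), endothelial (275.8 to 515.4 against 633.1 to 881.7), astrocyte (1.01 to 1.78 against 6.59 to 28.0) and pericyte markers (2.24 to 9.32 against 10.7 to 18.9) were higher at P5. Cone (106.3 to 152.9 against 35.8 to 67.9 CPM) and amacrine markers (35.6 to 102.7 against 13.8 to 32.6) were lower. The part of these markers in the changes of the lists was not tested. The class II list and the neurogenic marker list share genes, Neurog2, Atoh7 and Olig2 among them. Of the class II factors, 6 of 8 fell and none rose, with a median log2 change of -2.64 against -0.04 over all genes. Atoh7, which specifies ganglion cells, fell by 5.26 ± 0.79 on the log2 scale, from 17.4 to 0.304 CPM (edgeR adjusted p = 0.000395). Hes6 fell by 2.01 ± 0.39 as the only called gene of the 6 Hes and Hey factors, and Hes1 and Hes5, Notch targets that repress proneural genes, were at 439 and 1177 CPM at P2 and 586 and 1133 CPM at P5.

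Of 9 BMP ligands, 3 passed the filter on low counts in progenitors and all 3 rose at P5, where 10.6% of genes were called higher. A gene could pass this filter on its P5 libraries alone, and Bmp3 and Bmp7 were low at P2. The count is therefore not read as a pattern of ligands. Bmp3 went from 1.3 to 28.9 CPM (log2 4.37 ± 0.37, edgeR adjusted p = 2.81e-06), Bmp5 rose by 1.99 ± 0.41 and Bmp7 by 2.22 ± 0.55, the last from only 0.533 to 2.60 CPM. Of 6 tested receptors, none rose and 2 fell (Acvr2a by 0.70 and Acvr2b by 0.79), and of 3 Smads 1 fell (Smad4, the common partner, by 0.45). Of 7 inhibitors and feedback genes, Chrdl1, a secreted BMP antagonist, rose by 1.68 ± 0.24 and Smurf1 by 0.70, and Smad7, an inhibitory Smad, fell by 1.44 ± 0.28. None of the 4 other BMP targets tested was called. In neurogenic cells (6.67% called higher and 2.6% lower), 5 of 8 class II factors fell, with a median of -1.15 against 0.002 over all genes. Hes1 rose by 2.83 ± 0.73 and Hey2 by 1.26 ± 0.33. Among BMP genes, Bmp3, Bmpr1b and Chrdl1 rose in these cells. They were named after their values were seen, and without the number tested they give no share to set against 6.67%. Hes1 is itself one of the 8 progenitor markers that moved with Id3 there, and its part was not tested. No gene of these lists was called between MEIS and control libraries at either age.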

How the data were processed

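The authors deposited unnormalized counts of UMIs for every gene in every cell, and their metadata give each cell's library, cell type, UMI count and mitochondrial percent. Per the series design text and the submitters' processing notes, reads of 10x 3′ libraries were processed by Cell Ranger on mm10 with an added GFP locus and by Seurat 5, and filters on cells are not given in the sources used here. Libraries were grouped by title, since a treatment tag gave MEIS1 for every single-construct library at P2 and MEIS2 for every one at P5.

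Counts were summed per library and authors' type (at least 20 cells) and tested with edgeR 4.0.16 in R 4.3.3 (quasi-likelihood, filterByExpr, TMM, 1 mean for each of 8 groups, Benjamini-Hochberg over all genes). The count test was run on simulated counts for the control age comparison in progenitors alone. That simulation does not cover the groups of 2 libraries or an outlying library such as P2 MEIS2 replicate 2. DESeq2 1.42.0, other filters, doublets removed with Scrublet of scanpy 1.11.5 (3220 of 79009 cells, 4.08%), other groupings and left-out libraries were alternatives. Scrublet marked 0.0318% to 0.482% of cells in 7 libraries (2 of 6292 in P5 control 1), so it did little or did not work there, and doublets stayed in the main sums. Shares used cells thinned to 2000 UMIs, and shallower cells were left out. In control progenitors this left out 158 of 5608 cells at P2 and 6 of 1693 at P5, and in control rods 2823 of 13602 and 2079 of 10364.

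The Id genes and the gene lists were chosen with earlier results of these data known. Named genes were the 4 Id genes, the 5 genes most like each, and per list up to 4 called members with the lowest p in progenitors, or otherwise up to 3 with the highest level. Chrdl1, Bmp3, Bmpr1b, Hes1 and Hey2 in neurogenic cells and Hes5 were added after their values were seen. Not every member of these lists is described here, and their counts cover all members.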

Additional observations from a re-analysis of the deposited data

Results flagged for a closer look

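In 40 groups of 4 libraries, 3 had a library whose gap to its nearest neighbour exceeded Dixon's 95% limit, and chance flags about 1 group in 20. Id1 in amacrine cells of P5 control 3 was at 194.2 CPM, with the nearest of the other 3 libraries at 14.6 CPM. In that library 18 of 155 amacrine cells had at least 5 Id1 UMIs and held 62.5% of them, and the Müller glia markers summed to 456.3 CPM in these amacrine cells, against 116.1 to 262.4 CPM in the other P5 controls. The neurogenic markers summed to 1672 CPM there, against 207.4 to 402.9 CPM in the other 3. Their part in the value was not tested. Id4 in cones of P2 control 1 was at 7.34 CPM, from 12 UMIs in 352 cells, and the other 3 libraries, of 44 to 89 cones, had no Id4 UMI. Id4 in rods of P5 control 1 was at 11.5 CPM, with the nearest at 2.60 CPM. The starburst amacrine markers summed to 27.8 CPM in the rods of that library and to 1.95 to 6.72 CPM in the other 3. The amacrine markers summed to 125.8 CPM there, against 52.1 to 72.0 CPM. The part of both lists in the value was not tested.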

How the results depend on the processing

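For age in controls, 2 Id calls became 1 to 2 when 1 library was left out, and 0 in neurogenic cells without progenitor or Müller glia marker UMIs, an alternative chosen after seeing the data, where Id3 came to -0.98 and Id4 to -0.66 on the log2 scale. That fit held 3 Id3 and 4 Id4 UMIs in 79 cells of 3 P5 controls, and its filter takes out cells by markers that moved with Id3, so it is no test of the calls. In MEIS libraries the fit over all 3 constructs was not run, since the P5 MEIS1 and MEIS2 libraries held 5 to 10 such cells each; nor was one of the combination alone. Id3 in neurogenic cells otherwise kept its direction and call, with log2 changes of 2.88 to 3.47 without 1 library. For age in MEIS libraries, 2 calls became 4 with DESeq2, 4 with only the groups compared, 4 with the group taken from the barcode start and 2 to 3 without 1 library. With the replicate number as a block they became 4, adding Id2 in rods (-1.04, edgeR adjusted p = 0.0386) and Id4 in amacrine cells (1.94, adjusted p = 0.00335). Correlations of same-numbered deviations lay between -0.23 and 0.50 for P2 libraries and between 0.03 and 0.41 for P5 libraries, near or below 0 in some pairs, and the labels tie no number to a shared animal or batch. The block was therefore kept as an alternative, although at P5 several Id values followed the number. Id4 in neurogenic cells of MEIS libraries was called without P2 MEIS2 replicate 1 (3.62, where MEIS2 replicate 2, with no Id4 UMI, stands alone for its group, so that the value is no measured fold) and without P5 MEIS1 replicate 1 (0.92), and Id2 in rods without P5 combination replicate 1 (-1.48). MEIS against control at P2 gave 0 to 1 calls without 1 library, and single constructs 0 to 2, in both cases only without P2 MEIS2 replicate 1, where MEIS2 replicate 2 is assumed to vary like the other groups. Relations between Id genes went from 2 to 1 without TMM, where the remaining one, Id2 with Id4 at P2, also passed by rank. The cause of these changes was not tested.

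Over all genes, the 6 calls for MEIS2 at P2 in progenitors became 1 to 2557 without 1 library, 562 with DESeq2, 80 without TMM, 43 without the filter, 32 without doublets, 186 by barcode start and 0 with only the groups compared. The 52 age calls in amacrine cells of controls became 8 to 155 without 1 library, 192 with DESeq2, 88 with the block and 7 with only the groups compared. MEIS against control at P2 went from 2 to 0 to 761 calls in progenitors without 1 library, from 0 to 683 in neurogenic cells and 576 in rods without P2 MEIS2 replicate 1 and to 513 and 70 without P2 control 1, from 0 to 207 in neurogenic cells and 158 in rods with DESeq2, and to 414, 1053 and 285 in these types by barcode start. At P5 the 1 call in bipolar cells became 44 without combination replicate 2. The 2602 age calls of control progenitors became 1573 to 1708 without P2 control 2 or 3 or P5 control 1 or 2, the 1949 of control rods 1124 without P5 control 2, and the 1897 of MEIS neurogenic cells 1160 and 1218 without P5 MEIS1 or MEIS2 replicate 2. The 390 age calls in amacrine cells of MEIS libraries became 134 to 360 without 1 library, 815 with DESeq2 and 658 with the block, and the 4 in cones 44 without the filter. Without TMM the age calls of MEIS progenitors went from 2255 higher and 2180 lower to 1546 and 3041, with the median of all genes at -0.19. Few control cells stood behind the values of Müller glia (59 and 74) and starburst amacrine cells (50 and 27).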

Other observations

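Some Id levels were high in the same P5 libraries across groups. Id1 in amacrine cells was at 194.2 CPM in control 3 and 182.9 CPM in combination 1, against 3.41 to 41.3 CPM in the other 8 P5 libraries, and these were also among the highest libraries for Id1 in progenitors, at 126.6 and 169.2 CPM. In combination 1, 32 of 194 amacrine cells held 80.3% of the Id1 UMIs. The neurogenic markers summed to 1672 and 1203 CPM in the amacrine cells of these 2 libraries, against 145.5 to 498.4 CPM in the other 8, and their part was not tested.

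Id4 in rods was at 11.5 CPM in P5 control 1, 11.4 CPM in MEIS1 replicate 1 and 12.2 CPM in MEIS2 replicate 1, against 1.69 to 3.20 CPM in the other 7 P5 libraries. Starburst amacrine markers summed to 27.8, 24.3 and 11.5 CPM in the rods of these 3 libraries, against 1.35 to 6.72 CPM in the rest. The general amacrine markers were also higher in the rods of all 3, at 125.8, 138.2 and 130.1 CPM, against 47.8 to 75.1 CPM in the rest. These 3 libraries also had the lowest median UMIs per cell of the P5 libraries, at 3139, 3275.5 and 4394. Id2 in rods was at 12.4 CPM in P5 control 1 and 13.2 CPM in combination 1, against 1.84 to 7.08 CPM in the other 8. Whether markers or depth bear on these levels was not tested.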
